A study of Bos taurus with 14 samples.

Results

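The genes described here encode zinc finger proteins whose symbols start with ZNF, ZFP, ZBTB or ZKSCAN, and 40 of them were followed in the liver of newborn calves. They were chosen by symbol from the 688 genes that the study's lists pair with a name, out of 27607 Ensembl genes in the count table, and no listed symbol started with ZSCAN. These lists had been selected on the same calves and on the same contrast between diets. Of the 40 genes, 13 came from the list of genes that differed in expression and 27 from the list of regulators picked by their regulatory impact factor (RIF), a score built from co-expression with the differing genes. In addition, 28 of the 40 (20 of the RIF genes and 8 of the expression genes) stood in the list of genes whose connectivity differed between the networks of the groups. Expression differences between the groups and correlations among these genes are therefore given as descriptions, without a test.

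Liver was sampled from 14 female calves 30 h after birth, and strand-specific libraries of polyadenylated RNA were sequenced. The dams were crossbred Angus-based heifers that received either a basal diet (CON, n = 7) or the same diet with a vitamin and mineral premix (VTM, n = 7) at 113 g per heifer each day. Supplementation started 60 days ahead of breeding and lasted through gestation. All dams were inseminated with female-sexed semen of 1 sire, and all calves were fed colostrum replacer and then milk replacer, so that these are shared by both groups. Each calf is 1 replicate, and liver was taken at 1 position of the organ. The study left CON calf 19 and VTM calf 10 out for low alignment, and fits given as those of the 12 calves leave them out as well.

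Proteins of the C2H2 zinc finger family bind DNA through repeated small domains, each folded around a zinc ion. Many mammalian members carry a KRAB domain, which recruits the corepressor TRIM28 and with it histone methyltransferases, and much of their known binding is to transposable elements. Other members carry a BTB domain, through which they pair and recruit corepressors such as NCOR, or a SCAN domain, which mediates pairing between family members. By background knowledge of these proteins, 14 of the 40 genes were assigned to the KRAB class, 3 to the SCAN class (ZKSCAN2, ZNF397 and ZNF500), 3 to the BTB class (ZBTB12, ZBTB34 and ZBTB47) and 20 to none of these. Each gene was given a single class, although a gene of the SCAN class can carry a KRAB domain as well. Members of such a family can share near-identical stretches, so that the split of reads between close relatives is uncertain.

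Libraries held 13382264 to 20125409 counts, and 4 of them stood apart from the others. VTM calf 40 had 15395 genes at 0 counts and only 318 genes with 1 to 9 counts, whereas the 10 libraries outside these 4 had 10941 to 11439 genes at 0. CON calf 31 had 13397 genes at 0, CON calf 19 had 13079 and CON calf 25 had 12497. Mitochondrially encoded genes named in the study's lists took 18.1% of the counts in CON calf 31, 8.57% in CON calf 25 and 1.89% to 4.31% in the other 12 libraries. Mitochondrial genes that the lists do not name are not in this share, and the lists had been selected on these calves. Of the 48 listed markers of liver cell types, 9 could be paired with an identifier, and the only hepatocyte marker among them was transthyretin (TTR), which was counted in each of the 14 libraries at 109.03 (CON calf 19) to 2226 CPM (CON calf 31). CPM are counts scaled to a library total of 1000000, here with TMM factors over the 14 libraries. CPM carry no correction for gene length, so levels are compared within a gene and not between genes. In whole tissue, fewer cells of a type and less RNA per cell cannot be told apart.

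Counts for most of these genes were low. Of the 40 genes, 8 had at least 100 counts in every library, 25 had at least 10 in every library, and 15 stayed under 100 in every library. ZFP91, an E3 ubiquitin ligase of the family, had 615 to 1188 counts, with 35.8 to 76.8 CPM in CON (median 46.8) and 40.3 to 49.98 CPM in VTM (median 45.8). ZNF358 had 34.7 to 128 CPM in CON (median 48.8) and 35.3 to 54.5 CPM in VTM (median 45.6). For both genes, the VTM range lay inside the CON range. ZNF142 was at 14.2 to 35.1 CPM in CON (median 19.7) and 16.3 to 20.1 CPM in VTM (median 18.02). ZNF219, which is known as a partner of SOX9 in cartilage, was at 16.4 to 27.7 CPM in CON (median 20.3) and 14.6 to 22.5 CPM in VTM (median 17.2). ZNF414 was at 14.6 to 45.5 CPM in CON (median 22.7) and 17.7 to 27.5 CPM in VTM (median 18.6). In ZNF142, ZNF219 and ZNF414 the highest library was CON calf 31. Summed over the 40 genes, the level was 556 CPM in CON calf 31, 479 CPM in CON calf 25 and 305 to 341 CPM in the other 12 libraries. The TMM factors of these 2 libraries were 0.698 and 0.855, the lowest of the 14, and before TMM scaling their zinc finger genes took 388 and 410 of every 1000000 counts, against 303 to 384 in the others.

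Several KRAB genes had a count above 0 in every library and no fold change among the most extreme. ZNF79 had 3.72 to 8.86 CPM in CON (median 7.69) and 5.97 to 8.87 CPM in VTM (median 7.25). ZNF133, a KRAB repressor, had 4.59 to 12.4 CPM in CON (median 6.01) and 5.13 to 9.49 CPM in VTM (median 7.17). ZNF555 had 3.72 to 7.27 CPM in CON (median 4.77) and 3.05 to 6.51 CPM in VTM (median 4.73). The groups overlapped in each of these genes. ZNF7 was at 1.45 to 4.76 CPM in CON (median 4.41) and 1.75 to 5.07 CPM in VTM (median 4.10). ZNF624 was at 1.03 to 7.92 CPM in CON (median 2.59) and 2.24 to 5.002 CPM in VTM (median 3.46). ZNF354B was at 2.18 to 7.24 CPM in CON (median 3.52) and 2.58 to 6.15 CPM in VTM (median 3.30). The lowest value of ZNF7 was that of CON calf 31, which was the highest library for ZNF624. ZNF454 was counted 7 to 49 times per library, at 0.397 to 3.47 CPM in CON (median 1.40) and 0.871 to 2.95 CPM in VTM (median 1.23).

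**Figure D1:**
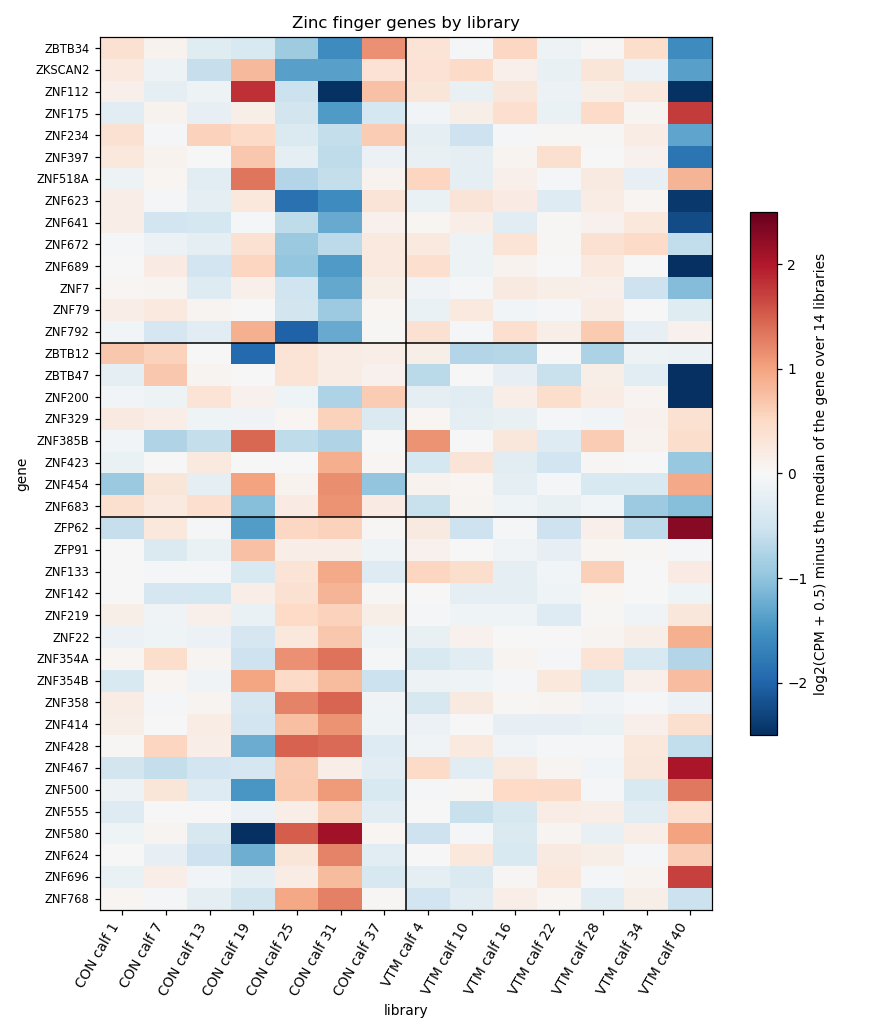
Rows are the 40 zinc finger genes and columns the 14 libraries, with the color giving log2(CPM + 0.5) minus the gene's median over the 14 libraries, and darkest colors standing for differences of 2.5 or more. Horizontal lines separate the 14 genes that were low in both CON calves 25 and 31 (top), 8 genes of neither kind, and the 18 genes that were high in both (bottom), and the vertical line separates CON from VTM. Colors are strongest in CON calves 19, 25 and 31 and VTM calf 40.

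Counts of 0 were found for 10 of the 40 genes and stood in 4 libraries only. VTM calf 40 had 9 genes at 0 (ZBTB34, ZKSCAN2, ZNF112, ZNF200, ZNF234, ZNF623, ZNF641, ZNF683 and ZNF689), CON calf 31 had 3 (ZBTB34, ZKSCAN2 and ZNF112), CON calf 19 had 2 (ZNF500 and ZNF683) and CON calf 25 had 1 (ZKSCAN2). In the other 10 libraries no member was at 0. These 4 are the libraries with the most genes at 0 over the whole table. When each library was thinned to the lowest total, 13382264 counts, the numbers of zinc finger genes at 0 in the 4 libraries were the same. A count of 0 in VTM calf 40 allows a level of up to 0.185 CPM, the value of 3 counts in that library. This limit is scaled by the library total without the TMM factor (1.02 for this library), and it covers counting error only.

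ZNF689, a KRAB gene, had 58 to 129 counts in the 11 libraries other than CON calves 25 (29 counts) and 31 (19 counts) and VTM calf 40 (0 counts). Its level was 1.53 to 7.37 CPM in CON (median 4.85) and 0 to 6.70 CPM in VTM (median 4.99), and without calf 40 the lowest VTM calf was at 4.47 CPM. The highest and the median VTM library thus lay near those of CON, and 1 library was at 0. ZNF112, also a KRAB gene, had 144 counts in CON calf 19, 0 in CON calf 31 and VTM calf 40, and 18 to 83 in the other 11 libraries. Its level was 0 to 9.31 CPM in CON (median 2.06) and 0 to 2.91 CPM in VTM (median 2.58). ZNF200 had 16 counts in CON calf 31, 0 in VTM calf 40 and 27 to 86 elsewhere. Its CPM were 1.29 to 4.27 in CON (median 2.39) and 0 to 3.65 in VTM (median 2.72). The zero of ZNF200 was the only one among the 14 libraries. ZNF641, a KRAB gene, had 0.485 to 2.14 CPM in CON (median 1.24) and 0 to 2.34 CPM in VTM (median 1.92). ZNF623 had 3 and 5 counts in CON calves 25 and 31, 0 in VTM calf 40 and 30 to 57 elsewhere. Both genes were low in the same 3 libraries.

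ZNF234, another KRAB gene, had at most 29 counts, with 0.323 to 1.44 CPM in CON (median 1.13) and 0 to 0.926 CPM in VTM (median 0.707). ZBTB34, of the BTB class, was at 0 to 2.78 CPM in CON (median 0.706) and 0 to 1.65 CPM in VTM (median 1.02). ZKSCAN2, of the SCAN class, was at 0 to 1.75 CPM in CON (median 0.673) and 0 to 1.27 CPM in VTM (median 0.884). For ZBTB34 and ZKSCAN2, both groups had a library at 0. ZNF500, of the SCAN class, ran the other way, with 0 counts in CON calf 19 and its highest count, 48, in VTM calf 40. It was at 0 to 2.34 CPM in CON (median 0.756) and 0.544 to 2.89 CPM in VTM (median 0.894).

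**Figure D2:**
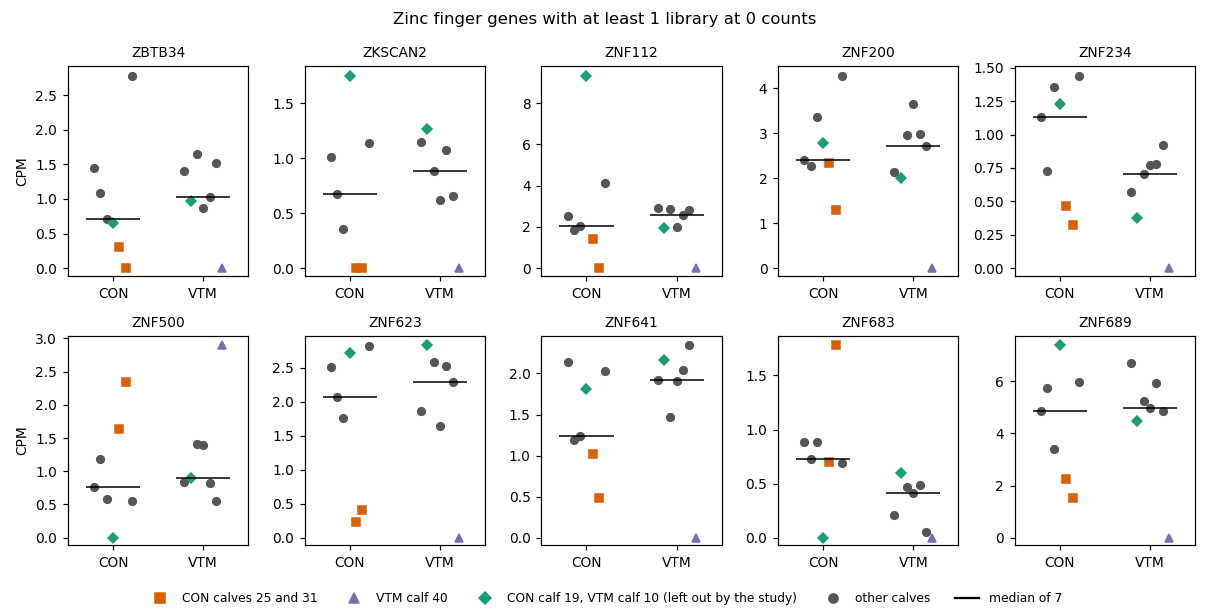
Each panel gives the CPM of 1 of the 10 zinc finger genes with a library at 0 counts, 1 symbol per calf, with CON on the left, VTM on the right and a line at the median of 7 calves. VTM calf 40 (triangle) is at 0 in 9 of the 10 panels and is the highest library in the panel of ZNF500.

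Zeros of the zinc finger genes in VTM calf 40 were compared with those of all genes at a like count. Of 13 zinc finger genes whose level in the other libraries led to 10 to 50 counts in calf 40, 7 were at 0 (53.8%), against 50.7% of all 2667 genes in that band. In the band of 50 to 100 counts, 1 of 12 was at 0 (8.33%), against 19.3% of 1639 genes. None of the 14 zinc finger genes that led to 100 counts or more was at 0, against 0.968% of 9087 genes. In CON calf 31, 2 of 10 were at 0 in the band of 10 to 50 counts, against 20.7% of 2572 genes. Shares of the zinc finger genes at 0 thus lay close to those of all genes in the lowest band of both libraries, and no test was made. None of the 40 genes had 1 to 9 counts in calf 40, where the lowest count above 0 was 24 (ZNF397).

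VTM calf 40 was the lowest of the 14 libraries, with no tie, for 10 of the 40 genes, where this held for 23.0% of all 13307 genes tested. It was the highest for 6 of the 40, against 14% of all genes tested. ZBTB47, of the BTB class, was at 1.93 CPM in calf 40 and at 9.46 to 24.8 CPM in the other 13 libraries. ZNF397, of the SCAN class, was at 1.45 CPM in calf 40 and at 3.96 to 10.5 CPM in the others. Measured in SD of log2 CPM from the mean of the other 13, calf 40 was farthest off in ZNF200 (-10.9), ZNF689 (-8.58), ZBTB47 (-7.84), ZNF641 (-6.76) and ZNF397 (-6.01). All 5 of these genes were lowest in calf 40. In ZNF200, ZNF689 and ZNF641 the count in calf 40 was 0, so its log2 CPM is set by the prior count of 2. The size and the order of these distances depend on that choice.

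In the other direction, ZNF696 was at 11.2 CPM in calf 40 and at 2.23 to 5.74 CPM in the other 13 libraries. ZFP62 was at 10.8 CPM there and at 0.388 to 2.99 CPM in the others. ZNF22 was at 24.9 CPM in calf 40 and at 9.83 to 21.4 CPM in the others. Together with ZNF175, ZNF467 and ZNF500, these were the 6 genes with their highest value in calf 40. Under scaling by library totals alone, calf 40 was the lowest library for the same 10 genes and the highest for these 6 and 3 more.

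CON calves 25 and 31 lay on the same side of the other 4 CON calves among the 12 in 32 of the 40 genes. Both were lower than those 4 in 14 genes (ZBTB34, ZKSCAN2, ZNF112, ZNF175, ZNF234, ZNF397, ZNF518A, ZNF623, ZNF641, ZNF672, ZNF689, ZNF7, ZNF79 and ZNF792), a position held by 27.8% of all genes tested. Both were higher in 18 genes (ZFP62, ZFP91, ZNF133, ZNF142, ZNF219, ZNF22, ZNF354A, ZNF354B, ZNF358, ZNF414, ZNF428, ZNF467, ZNF500, ZNF555, ZNF580, ZNF624, ZNF696 and ZNF768), against 22.6% of all genes. The KRAB class had 8 genes in the low block and 5 in the high block, the SCAN class had 2 and 1, and the BTB class had 1 and 0. Genes of none of these classes had 3 and 12. These blocks were defined from the values themselves and were given no test. With library totals in place of TMM factors, the low block held the same 14 genes and 2 more, where 46.9% of all genes did so, and the high block held 10 of the 18, against 8.80% of all genes. The 8 genes that left it were ZFP62, ZFP91, ZNF142, ZNF219, ZNF22, ZNF467, ZNF555 and ZNF696, so that their high position in these calves depended on the scaling. With RLE size factors, ZNF175 left the low block and no other gene left either block.

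ZNF358 was at 112 and 128 CPM in CON calves 25 and 31 and at 43.9 to 53.1 CPM in the other 4 CON calves. ZNF768, a regulator of cell proliferation that binds interspersed repeats, was at 46.2 and 56.1 CPM in these calves and at 19.9 to 23.9 CPM in the other 4. ZNF580 was at 17.8 and 27.1 CPM against 4.36 to 6.22 CPM. The remaining CON calf, 19, was at 0.259 CPM for ZNF580 (4 counts), the lowest of the 14 libraries. In the low block, ZNF792, a KRAB gene, was at 0.312 and 0.889 CPM in CON calves 25 and 31 and at 1.97 to 2.88 CPM in the other 4. ZNF672 was at 1.33 and 1.70 CPM against 2.47 to 3.62 CPM. CON calf 19 lay above those 4 calves in 8 of the 14 genes of the low block, where it did so in 50.9% of all genes placed in that way, and below them in 2 (ZBTB34 and ZNF79), against 17.4%. In the high block it lay below them in 12 of the 18 genes, against 56.3%, and above them in 3 (ZFP91, ZNF142 and ZNF354B), against 16.9%. The share of counts in the listed mitochondrial genes and the level of TTR, given above, were also highest in CON calves 31 and 25. Their part in these blocks was not tested.

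Between the diets, 9 of the 40 genes passed the study's threshold (unadjusted p of at most 0.05 and absolute log2 fold change of at least 0.5) in an edgeR quasi-likelihood fit of the 12 calves, where 3.71% of all genes tested did. Higher in VTM were 3 (ZNF175, ZNF385B and ZNF518A), against 0.864% of all genes, and lower were 6 (ZBTB12, ZNF354A, ZNF358, ZNF428, ZNF683 and ZNF768), against 2.85%. Since 13 of the 40 genes were chosen by this contrast, nothing is read from these counts. No gene in the table had an adjusted p of at most 0.05 in this fit, and 690 genes had an unadjusted p of at most 0.05. With DESeq2, the tool the study had used, 13 zinc finger genes passed, beside 4.73% of all genes, and again no gene passed after adjustment. Members just inside the threshold by the DESeq2 fold change were ZNF518A at 0.56 (SE 0.26) and ZNF768 at -0.61 (SE 0.29), and those just outside were ZNF672 at 0.48 (SE 0.32) and ZNF414 at -0.45 (SE 0.25).

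The number of genes past the threshold depended on a few libraries. It was 11 in the 11 calves without VTM calf 40 (4.17% of all genes), 4 without CON calf 25 (2.27% of all genes) and 3 without CON calf 31 (2.12% of all genes). Without both of these CON calves it was 2 (ZNF385B and ZNF467), where 1.93% of all genes passed, and without VTM calf 40 as well it was 5, with 3.24% of all genes. Calls over all genes thus fell along with those of the zinc finger genes when either CON calf was left out. Over all 14 calves it was 2 (ZNF175 and ZNF354A), with 2.07% of all genes. Over the 13 calves that remain without VTM calf 40 it was 0 in the edgeR fit, with 2.31% of all genes and 448 genes at an unadjusted p of at most 0.05. DESeq2 was not run on those 13 calves. Of the 12 fits with a single calf removed, ZNF385B passed in 12, ZNF175 and ZNF683 in 11, ZNF354A, ZNF358 and ZNF428 in 10, ZNF768 in 6, ZBTB12 in 5 and ZNF518A in 4. Over the 40 genes the median log2 fold change was 0.00037, with 20 genes above and 20 below 0, beside a median of -0.02 for all genes. Without VTM calf 40 the median was -0.12, with 17 above and 23 below 0, beside -0.01 for all genes. By class, the median was 0.03 for the KRAB genes (8 of 14 above 0, 2 past the threshold), -0.67 for the BTB genes (1 of 3 above 0, 1 past it), 0.17 for the SCAN genes (2 of 3 above 0, none past it) and -0.11 for the others (9 of 20 above 0, 6 past it).

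**Figure D3:**
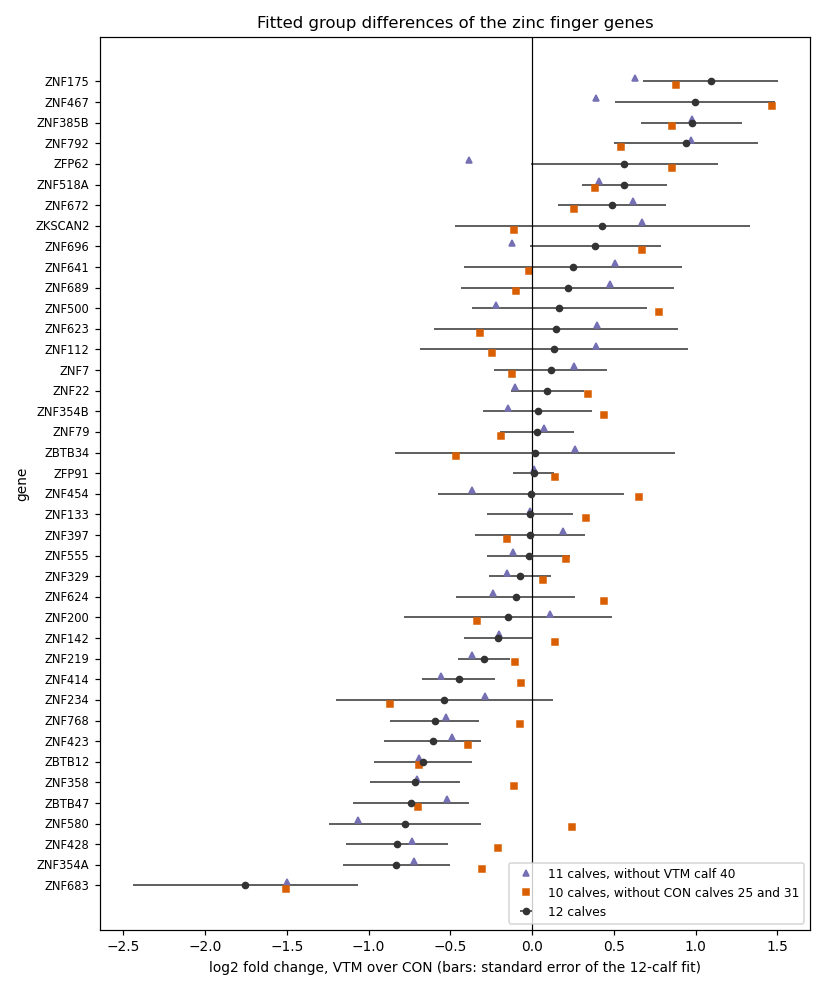
Points give the fitted log2 fold change of VTM over CON for each of the 40 zinc finger genes in the 12 calves, with bars for the standard error, and triangles and squares give the fits without VTM calf 40 and without CON calves 25 and 31. ZFP62 lies at 0.56 in the 12 calves and at -0.39 without VTM calf 40, and ZNF580 lies at -0.78 and moves to 0.24 without the 2 CON calves.

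Among the genes with the highest fold changes, ZNF175, a KRAB gene described as a repressor of retroviral transcription in macrophages, was at 0.969 to 3.82 CPM in CON (median 2.77) and 2.98 to 12.6 CPM in VTM (median 3.80). The log2 fold change of ZNF175 was 1.09 (SE 0.41) in the 12 calves and 0.63 (SE 0.31) without VTM calf 40, which held the highest value, and 0.88 (SE 0.42) without CON calves 25 and 31. It did not pass the threshold in either of the last 2 fits. ZNF467, a regulator of the choice between fat and bone cells, was at 1.04 to 3.12 CPM in CON (median 1.23) and 1.42 to 9.10 CPM in VTM (median 2.24). Its highest VTM value was again that of calf 40, and the second highest, 2.75 CPM, lay below that of CON calf 25. The log2 fold change of ZNF467 was 0.99 (SE 0.49) in the 12 calves, 0.39 (SE 0.34) without VTM calf 40 and 1.47 (SE 0.53) without CON calves 25 and 31. ZFP62 was at 0.388 to 2.99 CPM in CON (median 1.89) and 0.980 to 10.8 CPM in VTM (median 1.77). Its log2 fold change of 0.56 (SE 0.57) turned to -0.39 (SE 0.35) without calf 40. For ZFP62 the VTM median lay below the CON median.

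ZNF385B, a protein that binds p53, was at 2.10 to 11.3 CPM in CON (median 2.41) and 3.03 to 9.04 CPM in VTM (median 4.83). The value of 11.3 CPM belongs to CON calf 19, and the 6 CON calves of the fit reached 3.92 CPM at most. Its log2 fold change was 0.98 (SE 0.31) in the 12 calves and 0.39 (SE 0.40) over all 14, where it did not pass the threshold. ZNF792 was at 0.312 to 5.63 CPM in CON (median 2.24) and 2.40 to 4.72 CPM in VTM (median 3.19). ZNF792 had a log2 fold change of 0.94 (SE 0.44), and of 0.54 (SE 0.30) without CON calves 25 and 31, the lowest 2 libraries. ZNF518A was at 2.96 to 13.97 CPM in CON (median 4.79) and 4.40 to 9.82 CPM in VTM (median 5.78), with a log2 fold change of 0.56 (SE 0.26) in the 12 calves and 0.11 (SE 0.33) over all 14. In ZNF385B, ZNF792 and ZNF518A the highest library of all was CON calf 19.

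Among the genes with the lowest fold changes, ZNF683 (known as Hobit), a factor of tissue-resident lymphocytes, had at most 22 counts. It was at 0 to 1.78 CPM in CON (median 0.725) and 0 to 0.596 CPM in VTM (median 0.411). The log2 fold change of ZNF683 was -1.76 (SE 0.69), and it was -1.50 (SE 0.52) without VTM calf 40. Among the 12 calves the groups did not overlap, since the lowest CON calf had 0.695 CPM and the highest VTM calf 0.487 CPM, but CON calf 19 was at 0 and VTM calf 10 at 0.596 CPM. VTM values in the 12 calves rest on 0 to 10 counts. Markers of T and NK cells could not be paired with identifiers and were not analysed here.

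ZNF354A, a KRAB gene first described in kidney, was at 2.91 to 12.04 CPM in CON (median 4.65) and 2.47 to 5.74 CPM in VTM (median 3.58). Its log2 fold change was -0.83 (SE 0.33) in the 12 calves and -0.31 (SE 0.28) without CON calves 25 and 31. ZNF428 was at 4.91 to 35.2 CPM in CON (median 13.8) and 7.83 to 14.9 CPM in VTM (median 11.9). This gene moved from -0.83 (SE 0.31) to -0.21 (SE 0.21) without the same calves. For ZNF580, at 0.259 to 27.1 CPM in CON (median 6.15) and 4.001 to 12.5 CPM in VTM (median 5.74), it moved from -0.78 (SE 0.46) to 0.24 (SE 0.32). ZNF358 went from -0.72 (SE 0.28) to -0.11 (SE 0.12), and ZNF768 from -0.60 (SE 0.27) to -0.07 (SE 0.17). The 2 CON calves held the highest values of all 5 genes.

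For the BTB genes ZBTB47 and ZBTB12, the fold change was nearly the same without these calves. ZBTB47 was at 13.1 to 24.8 CPM in CON (median 16.6) and 1.93 to 17.0 CPM in VTM (median 12.6). Its log2 fold change was -0.74 (SE 0.35) in the 12 calves, -0.70 (SE 0.41) without CON calves 25 and 31 and -0.52 (SE 0.20) without VTM calf 40. ZBTB12 was at 0.388 to 4.91 CPM in CON (median 3.39) and 1.46 to 3.27 CPM in VTM (median 2.59), with a log2 fold change of -0.67 (SE 0.30). It was -0.69 without the 2 CON calves as well as without calf 40. ZNF423, a partner of SMAD and EBF proteins known from fat cell commitment, was at 3.46 to 7.92 CPM in CON (median 3.99) and 1.81 to 5.07 CPM in VTM (median 3.18). ZNF423 had a log2 fold change of -0.61 (SE 0.30). ZNF329 was at 7.05 to 13.97 CPM in CON (median 9.59) and 7.75 to 12.1 CPM in VTM (median 8.84), with a log2 fold change of -0.07 (SE 0.19).

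**Figure D4:**
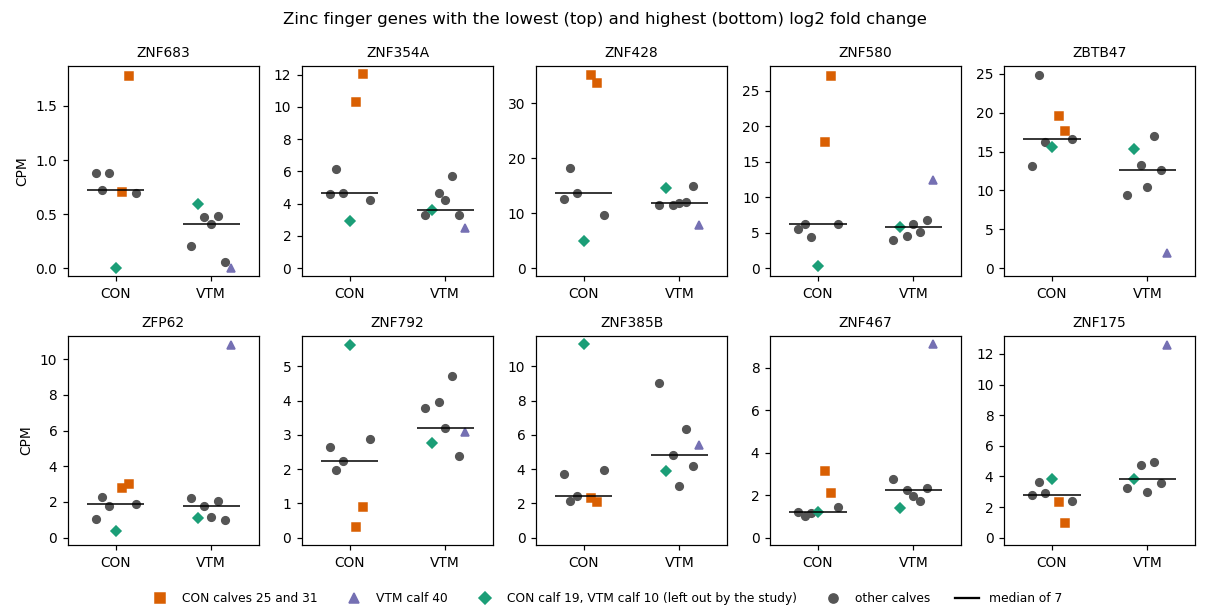
Panels give the CPM per calf of the 5 zinc finger genes with the lowest log2 fold change (top row) and the 5 with the highest (bottom row), with a line at the median of 7 calves in each group. CON calves 25 and 31 (squares) are the 2 highest libraries for ZNF354A, ZNF428 and ZNF580, VTM calf 40 (triangle) is the highest for ZFP62, ZNF467 and ZNF175, and CON calf 19 (diamond) is the highest for ZNF792 and ZNF385B.

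The 2 calves that the study left out were not used in choosing the genes. In this pair, VTM calf 10 against CON calf 19, the log2 CPM difference had the sign of the 12-calf fold change in 16 of the 40 genes (40%), in 2 of the 13 genes of the expression list (15.4%) and in 36.97% of all genes tested. A single pair allows no test, and CON calf 19 is 1 of the 4 libraries that stood apart. For ZNF385B the 2 calves were at 3.87 CPM (VTM) and 11.3 CPM (CON). For ZNF683 they were at 0.596 CPM (VTM) and 0 CPM (CON), and for ZNF428 at 14.6 CPM (VTM) and 4.91 CPM (CON). In these 3 genes the left-out pair ran against the 12 calves.

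Other genes of the pathways in which these proteins act could be followed only in part. Of 26 listed corepressor genes, 2 were named in the study's lists (CHD3 and MTA1), and of 26 zinc handling genes 1 was (SLC39A11). CHD3, a chromatin remodeler of the NuRD complex, was at 17.0 to 102 CPM in CON (median 47.9) and 46.2 to 92.7 CPM in VTM (median 63.4), with a log2 fold change of 0.61 (SE 0.25). MTA1, of the same complex, had a log2 fold change of -0.38 (SE 0.23). SLC39A11, a zinc transporter, was at 33.8 to 64.8 CPM in CON (median 56.9) and 61.0 to 94.7 CPM in VTM (median 65.4), with a log2 fold change of 0.52 (SE 0.18). CHD3 and SLC39A11 passed the study's threshold and MTA1 did not, and all 3 had also been chosen by the study on these calves. The lowest library for CHD3 and SLC39A11 was CON calf 31, which was the highest for MTA1.

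Of the 9 markers of liver cell types, 7 passed the study's threshold in the 12 calves, where 3.71% of all genes tested did. Lower in VTM were 6 (COL1A1, COL3A1, DCN, KRT19, KRT7 and ROBO4), against 2.85% of all genes, and 1 was higher (LRAT), against 0.864%. TTR, the only hepatocyte marker, did not pass, with a log2 fold change of -0.99 (SE 0.52). The stellate cell markers went both ways, with COL1A1, COL3A1 and DCN lower in VTM and LRAT higher. DCN was at 111 to 338 CPM in CON (median 284) and 135 to 199 CPM in VTM (median 149.7). LRAT was at 5.91 to 15.1 CPM in CON (median 9.36) and 12.1 to 19.1 CPM in VTM (median 14.2). ROBO4, an endothelial gene, was at 12.998 to 31.1 CPM in CON (median 23.3) and 6.39 to 13.2 CPM in VTM (median 11.4). SOX9, a bile duct marker, did not pass the threshold, with a median of 3.30 CPM in CON and 4.30 CPM in VTM. It was at 0 in VTM calf 40 and at 0.702 and 1.05 CPM in CON calves 25 and 31. These markers were likewise named only because the study had listed them, so nothing is read from the number that passed. Their part in the differences of the zinc finger genes was not tested.

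Co-variation among the 40 genes was described by the Pearson correlation of log2 CPM over all 780 pairs. These pairs share libraries and genes, and the study had picked 28 of the genes by connectivity and 27 by RIF, 20 by both. Both choices used co-expression in the 12 calves, so the values carry no test. Across the 12 calves the median correlation was 0.02, with positive and negative pairs in balance, and the median absolute correlation was 0.53, beside 0.35 over all pairs of the 13307 genes. Without VTM calf 40 it was 0.64, beside 0.38 for all genes. Within the 6 CON calves the median absolute correlation was 0.78 (all genes 0.50), and 157 pairs (20.1%) reached an absolute value of 0.9, beside 6.61% of all pairs. Within the 6 VTM calves it was 0.69 (all genes 0.46), and 134 pairs (17.2%) reached 0.9, beside 5.40%. In both diet groups the share of such pairs was above that of all genes. Since most of these genes were chosen by co-expression in the same calves, nothing is read from this.

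The number of strongly correlated pairs depended on single libraries in both groups. Without VTM calf 40, the 5 remaining VTM calves of the 12 had a median absolute correlation of 0.39 (all genes 0.44), and 33 pairs (4.23%) reached 0.9, beside 4.91% of all pairs. Leaving out any other VTM calf gave 163 to 237 pairs. In CON, leaving out calf 31 gave 102 pairs (13.1%), and leaving out any other calf gave 182 to 269. The share over all genes was computed for none of these CON sets, nor for the VTM sets without another calf. Whether all genes changed alike there was not tested. Correlations in 5 calves are imprecise, so these counts are set against each other and not against the 6-calf counts. With VTM calf 10 in place of calf 40, 14 pairs (1.79%) reached 0.9 in 6 VTM calves, beside 2.11% of all pairs, against the 134 pairs given above for the 6 VTM calves with calf 40.

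The low and high blocks of CON calves 25 and 31 differed in VTM. Within the low block the median correlation was 0.84 in the 6 CON calves, which defined it, and 0.74 in the 6 VTM calves. In the 6 VTM calves of all 14 without calf 40 it was 0.07. Within the high block the median correlation was 0.87 in the 6 CON calves, 0.12 in the 6 VTM calves with calf 40 and 0.023 in those without it. These are medians of signed values, in which positive and negative pairs cancel. With calf 40, strong pairs of this block ran both ways, such as ZNF22 and ZNF696 at 0.97 and ZFP62 and ZNF428 at -0.95. Between the blocks the median was -0.83 in the 6 CON calves, -0.44 in the 6 VTM calves and -0.0036 in the 6 VTM calves without calf 40. VTM calf 40 was the lowest library for 5 genes of the low block and the highest for 5 of the high block. It was the highest for 1 gene of the low block (ZNF175) and the lowest for 2 of the high block (ZNF354A and ZNF768). ZBTB34, ZKSCAN2 and ZNF112, of the low block, were at 0 in both calf 40 and CON calf 31, and such ties were not counted. The share of all genes in blocks of this kind was not computed. Whether these counts differ from those of all genes was therefore not tested, and nothing is read from them.

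ZNF200 and ZNF689, both at 0 in VTM calf 40, had a Pearson r of 0.98 and a Spearman rho of 0.26 in the 6 VTM calves. Across the 11 calves without calf 40 their r was 0.59 and their rho 0.24, and in the 5 VTM calves without it -0.71 and -0.3. ZNF112 and ZNF689 had an r of 0.85 and a rho of 0.73 in those 11 calves, and an r of 0.99 and a rho of 0.71 in the 6 VTM calves. In the 5 VTM calves without calf 40, ZNF112 and ZNF689 had an r of 0.37 and a rho of 0.5. In the first pair, rho was far below r in the 6 VTM calves. ZNF358 and ZNF768 had an r of 0.98 and a rho of 0.77 in the 6 CON calves, and an r of 0.79 and a rho of 0.77 in the 6 VTM calves. ZNF354A and ZNF354B, a pair of related KRAB genes, had an r of 0.97 in the 6 CON calves and -0.77 in the 6 VTM calves, where calf 40 was the lowest library for ZNF354A and the highest for ZNF354B. In the 5 VTM calves without calf 40 their r was -0.49 and their rho -0.5.

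**Figure D5:**
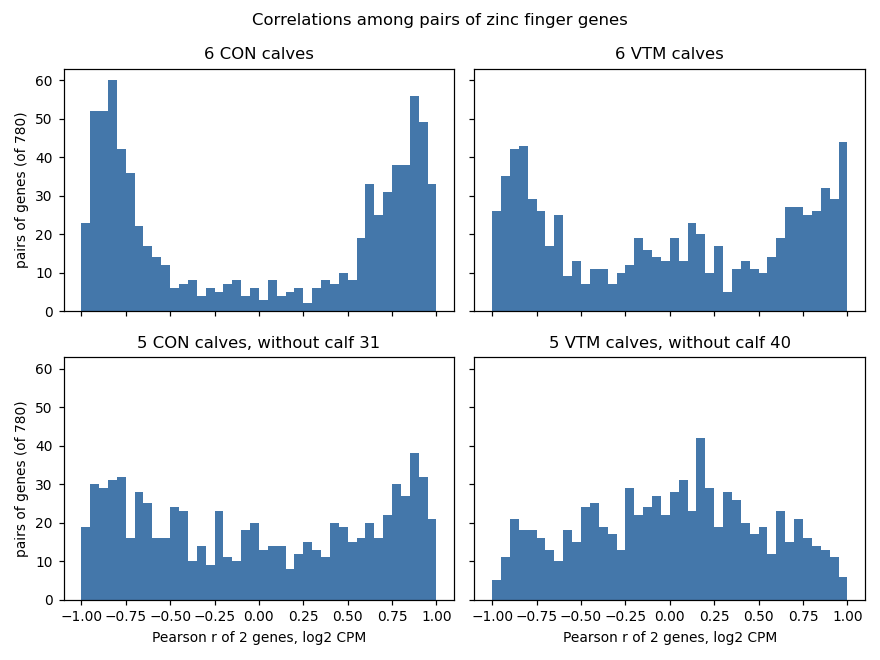
Histograms give the Pearson correlation of log2 CPM for the 780 pairs of zinc finger genes in the 6 CON calves, the 6 VTM calves, the 5 CON calves without calf 31 and the 5 VTM calves without calf 40. Pairs pile up near -1 and 1 in the upper panels (157 and 134 pairs at 0.9 or beyond), and the panel without VTM calf 40 is centered near 0, with 33 such pairs.

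By gene order in RefSeq, where 38 of the 40 symbols were found, few of the genes lay near each other. ZNF768 and ZNF689 had 2 protein-coding genes between them, ZBTB34 and ZNF79 had 4, and ZNF354A and ZFP62 had 5. ZNF768 and ZNF689 lay in opposite blocks, with CON calves 25 and 31 high in ZNF768 and low in ZNF689. ZBTB34 and ZNF79 were both in the low block, and ZNF354A and ZFP62 both in the high block.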

How the data were processed

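Liver RNA of 14 calves (7 CON, 7 VTM) was measured, with each calf as 1 replicate and groups taken from the sample labels. Reads had been trimmed and mapped with STAR 2.7.5 to the ARS-UCD1.2 genome, and the authors deposited the raw counts of each Ensembl gene, neither normalized nor filtered. Which strand column was used is not given in the sources used here. Every column was mapped to a sample. Symbols came from the study's lists, used as a dictionary, and the authors' own fold changes, p-values and scores in those lists were not used. The zinc finger genes, the gene lists and the tests were chosen with earlier results of these data known.

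CPM and log2 CPM (prior count of 2) were computed with TMM factors in edgeR 4.0.16 under R 4.3.3, and group differences with filterByExpr and the edgeR quasi-likelihood test over the 12 calves, condition being the only term. All 40 genes passed the filter. The SE is the absolute log2 fold change divided by the square root of F. Python 3.11.15 (numpy 2.4.6, pandas 2.3.3) was used for correlations and counts. The fit was tested on simulated data. Genes described in full were the 5 with the highest and the 5 with the lowest log2 fold change, those with a library at 0 and the 5 in which VTM calf 40 lay farthest from the others, which made 20 genes, and others were named after their values were seen. Alternatives were DESeq2 1.42.0, RLE size factors, other filters, other sets of calves, thinned libraries and other scales of correlation. The fits without CON calves 25 and 31, the fit with library totals and the absolute correlation were chosen after the data were seen. Sequences, other zinc finger genes and most markers and corepressors were not analysed here, since names were paired with identifiers only for genes on the study's lists. Totals per library ran from 13382264 to 20125409, and limits from counts cover counting error only.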

Additional observations from a re-analysis of the deposited data

Results flagged for a closer look

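For each calf, the gap to the nearest calf of its diet group was divided by the range of the 7. A calf was singled out where this ratio was above Dixon's critical value. For normally distributed values that happens in about 1 in 20 sets of 7. The ratio was taken on CPM, which were not checked for a normal distribution, so the share over all genes is given for comparison. Each gene gave 1 set of 7 per diet group. This held for 18 values of the 40 genes, of which VTM calf 40 had 12, CON calf 19 had 3 and CON calf 31 had 3. Over all genes tested, 3358 sets of 7 had such a calf, which is 12.6% of the sets of both groups. VTM calf 40 was that calf in 1531 of these sets, CON calf 19 in 490 and CON calf 31 in 435. Taken over the 13307 genes and not over sets, these are 11.5%, 3.68% and 3.27%.

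High in VTM calf 40 were ZFP62 (10.8 CPM), ZNF175 (12.6 CPM), ZNF22 (24.9 CPM), ZNF454 (2.95 CPM), ZNF467 (9.10 CPM), ZNF500 (2.89 CPM), ZNF580 (12.5 CPM) and ZNF696 (11.2 CPM). Low in this calf were ZNF112, ZNF623, ZNF641 and ZNF689, each at 0 CPM. In CON calf 19, ZFP91 (76.8 CPM), ZNF385B (11.3 CPM) and ZNF518A (13.97 CPM) were high. In CON calf 31, ZNF423 (7.92 CPM), ZNF624 (7.92 CPM) and ZNF696 (5.74 CPM) were high.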

How the results depend on the processing

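The 9 genes past the threshold became 2 over all 14 calves, 0 over the 13 without VTM calf 40, 2 without CON calves 25 and 31, and 5 without those and VTM calf 40, and they ranged from 3 (without CON calf 31) to 11 (without VTM calf 40) with 1 of the 12 calves left out. Other settings gave 7 (library totals, 3 higher and 4 lower) to 13 (DESeq2). Over all genes, the 494 calls became 275 over all 14 calves, 311 over 13, 263 without CON calves 25 and 31, 439 without those and VTM calf 40, 310 with library totals, 1003 with no filter, and 286 to 1039 with 1 calf left out. Of 292 alternative fold changes of 14 genes, 204 kept direction and side of the threshold, 63 dropped below it, 20 came above it and 5 changed sign. These were ZFP62 (-0.28 over 13 calves, -0.093 without CON calves 25 and 31 and VTM calf 40, and -0.39 to 0.75 with 1 calf left out), ZNF518A (-0.031 over 13 calves) and ZNF580 (0.24 without CON calves 25 and 31). The cause was not tested. The median fold change ranged from -0.12 to 0.085. The median correlation of 0.02 was -0.031 over 13 calves, 0.032 with a prior count of 0.5, 0.0036 centered on each group, and -0.0042 to 0.039 with 1 calf left out. The median absolute correlation of 0.53 was 0.50 over all 14 calves, 0.57 over 13, 0.56 centered, 0.40 with Spearman, and 0.50 to 0.64 with 1 calf left out. The 9 genes at 0 in VTM calf 40 were 9 after thinning and 9 at up to 3 counts. No paired analysis was possible, because each calf belongs to a single group and no label pairs a CON calf with a VTM calf. The planned test of other zinc finger genes was not run.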
